A study of Mus musculus with 8 samples.

Results

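The genes described here are the mouse genes named Zfp followed by a digit, which encode zinc finger proteins, and the sites of m6A antibody crosslinking inside them in αTC1-6, a mouse line of glucagon-making pancreatic alpha cells. A gene was taken when its mm10 RefSeq symbol had this form and at least 1 deposited site lay in its span and in no other protein-coding span. This gave 164 genes with 813 sites, of 6531 named genes and 33774 sites in all. RefSeq lists 397 protein-coding genes with such a symbol, so 41.3% had a site, against 29.0% of all 21900 protein-coding genes. Symbol alone chose the genes, and a shared name does not mean a shared domain or origin.

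Zinc fingers are small folds held by a zinc ion that bind DNA, RNA or protein. The largest zinc finger family, the KRAB zinc finger proteins, bind DNA through tandem fingers and recruit a corepressor that silences retroelements and imprinted loci. Other Zfp genes encode factors that bind AU-rich mRNA, sense stalled ribosomes or mark proteins for degradation. The m6A mark is a methyl group on adenosine in RNA, and on messenger RNA it is written by an enzyme made of Mettl3 and Mettl14.

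In m6A-eCLIP ultraviolet light fixes an m6A antibody onto RNA, the complexes are pulled down, and the IP libraries count reads at the positions of contact. Input libraries lack that selection. Cells had received an siRNA against Mettl14 (M14KD, replicates 3 and 4) or a scramble siRNA (SCR, replicates 1 and 2), and each of the 4 groups, IP M14KD, IP SCR, Input M14KD and Input SCR, held 2 libraries. All libraries are of the same immortalized line, and the labels do not say whether replicates were separate cultures, so a p-value reflects only the spread between these libraries, which may be technical. The time of collection is not stated in the labels.

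Each IP library held 10207383 to 10918559 counts over all sites and each Input library 3438530 to 3637740. Mettl14 itself had 42 and 25 counts in the M14KD IP libraries against 78 and 81 in the SCR IP libraries, and 32 and 22 in the M14KD Input libraries against 64 and 44 in the SCR Input libraries. Its log2 fold changes were -1.17 (SE 0.24) in IP and -0.96 (SE 0.27) in Input, with edgeR adjusted p-values of 0.157 and 0.261 over all genes. Gcg, the glucagon gene that defines alpha cells, had sites. None of the 9 markers of other islet cells and 1 of 9 non-endocrine markers, Sox9, had a site.

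The Zfp genes took 1.03% and 1.02% of all counts in the M14KD IP libraries and 1.03% and 0.987% in the SCR IP libraries. In Input they took 0.412% and 0.406% of counts in M14KD and 0.422% and 0.397% in SCR. The share was higher in each IP library than in any Input library, and the M14KD and SCR ranges overlapped in IP and in Input. A gene held a median of 3 sites. A single site was found in 38 genes, 2 to 4 sites in 64, 5 to 9 in 39 and 10 or more in 23, with the most, 29, in Zfp516 on chromosome 18 (82909688 to 83005314, mm10). The median count of a Zfp site was 83 to 93 across the IP libraries and 13 to 15 across the Input libraries, against 162 to 177 and 31 to 34 for all sites. At the median Zfp site Input depth is therefore the weaker side of the ratio, though in Zfp384, given below, the IP counts were lower than the Input counts.

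A smaller share of Zfp sites than of all sites lay at the very end of the gene. Strand was known for 132 of the genes, and of their 633 sites 31.9% lay in the last 10% of the gene span, against 47.9% of the 25633 sites of all protein-coding genes with a known strand. From 70% to 80% and from 80% to 90% of the span lay 17.2% and 24.6% of the Zfp sites, against 7.84% and 14.5% of all sites. Within 1000 bases of the gene end lay 14.8% of the Zfp sites and 27.5% of all sites, and the median distance was 2822 bases against 2190. Within 5000 bases the shares were the same, 71.4% each. The 133 sites of Zbtb genes, another zinc finger family, had 18.05% in the last 10% and 12.8% within 1000 bases, also below all sites. Median span was 15818 bases in the Zfp genes and 24710.5 bases in all genes, so 10% of a span is not the same length in both. Sites cannot be placed in exons, introns or untranslated regions here, because only gene spans were used. Sites of 1 gene are not independent, so these shares are descriptions with no test.

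**Figure D1:**
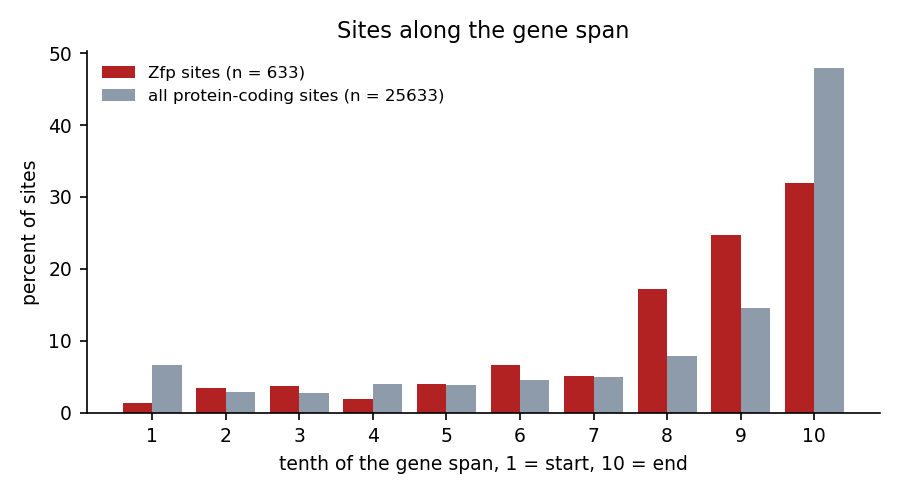
Share of sites (percent, vertical axis) in each 10% of the gene span from start to end (horizontal axis), for Zfp genes (red) and all protein-coding genes (grey). The last 10% holds 31.9% of Zfp sites and 47.9% of all sites, and the stretch from 70% to 90% holds a larger share of the Zfp sites than of all sites.

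Surrounding sequence could be read at 1 Zfp site, the only one inside a RefSeq promoter window (250 bases before to 50 after a transcript start), and it is shown for that reason. The site is the single site of Zfp771 on chromosome 7, at position 127244575 of GRCm38.p6, the assembly of mm10. The window chr7:127244276-127244575, plus strand, from RefSeq, reads as follows, 5′ to 3′, with the site's base in capitals.
Zfp771: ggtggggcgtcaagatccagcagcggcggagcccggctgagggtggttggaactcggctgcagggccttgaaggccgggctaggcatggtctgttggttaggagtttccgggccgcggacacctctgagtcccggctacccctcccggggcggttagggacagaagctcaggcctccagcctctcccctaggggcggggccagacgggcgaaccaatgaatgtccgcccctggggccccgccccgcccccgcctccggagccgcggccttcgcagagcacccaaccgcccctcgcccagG
This site had 92 and 104 counts in the M14KD IP libraries, 108 and 108 in the SCR IP libraries, 45 and 31 in the M14KD Input libraries and 31 and 38 in the SCR Input libraries. Over all 516 sites of any gene that lay in their own gene's window, the base at the site was an A in 36.8%, against 13.2% one base before it and 19.7% in the windows as a whole.

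The first comparison asked in which Zfp genes the antibody libraries held more or fewer reads than Input. Zfp genes were mostly above Input, and the few below it included Zfp598, a sensor of collided ribosomes. With edgeR's quasi-likelihood test on counts summed over the sites of a gene, and a threshold of 0.05 on the Benjamini-Hochberg adjusted p, 89 of the 160 tested Zfp genes were higher in IP and 11 lower in M14KD. In SCR 85 were higher and 13 lower. Over all 6379 genes tested, 35.5% were higher and 35.6% lower in M14KD, and 35.2% were higher and 34.7% lower in SCR. The Zfp shares were 55.6% and 6.88% in M14KD and 53.1% and 8.12% in SCR. The same call was made in both genotypes for 75 genes above Input and 11 below. Both calls came from the same model, and the matching numbers over all genes are not given here, so this is not particular to Zfp genes. The median log2 ratio of IP over Input was 0.70 in M14KD and 0.62 in SCR for Zfp genes, and 0.02 and 0.04 for all genes. Of the 164 genes 4 did not pass the filter on low counts, which a gene with few Input reads can pass through its IP libraries alone, so these counts describe the tested genes only.

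The scale of this ratio matters. TMM scaling sets 0 near the middle of all genes. With column totals in its place, the median over all genes was 0.73 in M14KD and 0.75 in SCR. On that scale 132 Zfp genes were higher and 4 lower in M14KD, 137 and 4 in SCR. The matching shares of all genes are not given here, so these counts do not set Zfp genes apart. The Zfp median minus that of all genes was 0.68 with TMM and 0.67 with column totals in M14KD, and 0.58 with both scalings in SCR.

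**Figure D2:**
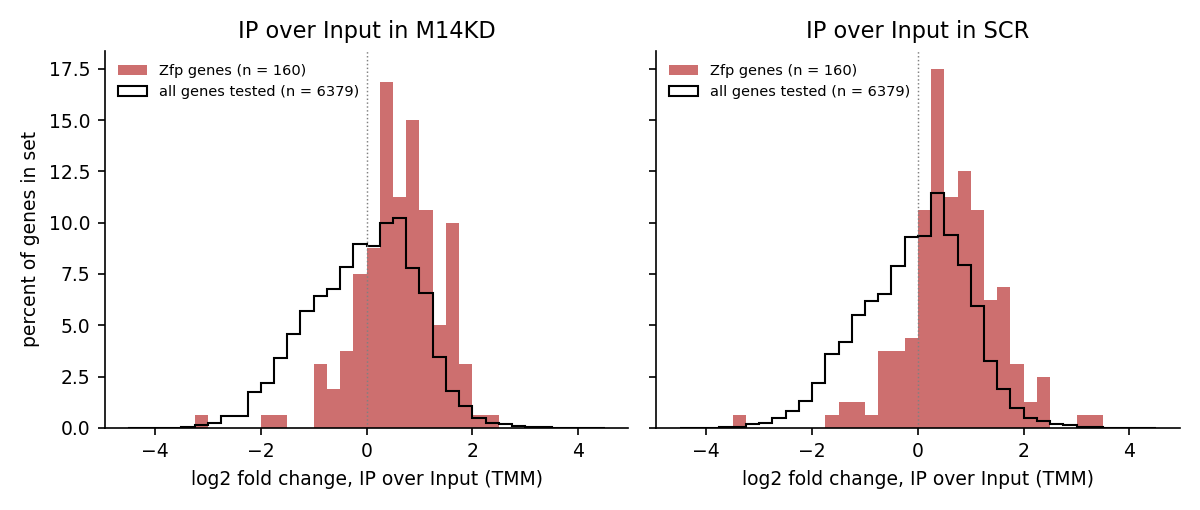
Percent of genes (vertical axis) by log2 fold change of IP over Input with TMM scaling (horizontal axis), in M14KD (left) and SCR (right), for 160 Zfp genes (red bars) and all 6379 genes tested (black outline). The Zfp genes sit to the right, with medians of 0.70 and 0.62 against 0.02 and 0.04.

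Zfp genes had fewer reads than other genes, and the ratio moved with read level, so both were set side by side in bins of Input count taken from the other genotype's libraries. For SCR ratios, the 37 Zfp genes with under 10 Input counts had a median of 0.83, against 0.57 for all 592 genes of that bin. At 10 to 30 counts the medians were 0.92 for 38 Zfp genes and 0.20 for all 991 genes. At 30 to 100 counts they were 0.34 for 43 Zfp genes and 0.03 for all 1622 genes. At 100 counts and over they were 0.59 for 42 Zfp genes and -0.09 for all 3174 genes. Genes of the lowest bin could pass the filter through their IP libraries alone, so its medians cannot show a gap, and 32.4% of its Zfp genes were called higher against 32.1% of all its genes. From 10 counts up the Zfp medians were above those of all genes in each of the 3 bins. In M14KD the bin medians were 0.77, 0.83, 0.40 and 0.72 for Zfp genes and 0.62, 0.11, 0.01 and -0.09 for all genes. How sites were picked for the deposited list is not stated in the labels or the file, and its part in the level of low genes was not tested. Position differed as well, and within 1000 bases of the gene end the median ratio of a site in SCR was 0.55 for 93 Zfp sites and -0.21 for all 7006 sites. Between 1000 and 2000 bases the medians were 0.76 for 125 Zfp sites and 0.12 for all 5041 sites. Between 2000 and 3000 bases they were 0.68 for 111 Zfp sites and 0.32 for all 3138 sites. Between 3000 and 5000 bases they were 0.39 for 115 Zfp sites and 0.31 for all 3022 sites. At 5000 bases and over they were 0.52 for 181 Zfp sites and 0.06 for all 7202 sites.

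Genes that carry zinc fingers under other names had similar medians. In SCR the 30 Zbtb genes, which join a BTB domain to zinc fingers, had 15 higher, 3 lower and a median log2 ratio of 0.51. The 15 Zscan and Zkscan genes, which carry a SCAN domain, had 11 higher, 1 lower and a median of 0.72. The 9 Klf genes, Krüppel-like factors, had 8 higher, none lower and a median of 0.81. All other protein-coding genes, 6004 tested, had a median of 0.00. The interquartile range of the Zfp genes, 0.20 to 1.16, held all 3 family medians.

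Among Zfp genes with a mean Input count of at least 20, the largest ratios were in Zfp324, Zfp868, Zfp91, Zfp334 and Zfp655. Zfp91 on chromosome 19 (12766939 to 12796123) encodes an atypical ubiquitin ligase. It had 850 and 856 CPM (counts divided by the site counts of the library, times 1000000) in the M14KD IP libraries and 827 and 798 CPM in the SCR IP libraries, against 175 and 187 CPM in M14KD Input and 152 and 164 CPM in SCR Input. Every IP library lay above every Input library, and the log2 ratio was 1.55 (SE 0.08) in M14KD and 1.67 (SE 0.08) in SCR. The noncoding gene Gm44505 covers the same span, so the reads cannot be given to Zfp91 alone. Zfp324, on chromosome 7 (12965838 to 12974244), had 45.2 and 50.5 CPM in M14KD IP and 47.9 and 53.7 CPM in SCR IP, against 8.58 and 7.27 CPM in M14KD Input and 7.74 and 7.70 CPM in SCR Input. Its ratio was 1.90 (SE 0.18) in M14KD and 2.02 (SE 0.18) in SCR, the largest of these 5 genes in both genotypes. Zfp334 had ratios of 1.53 and 1.64, Zfp655 of 1.71 and 1.61, and Zfp868 of 0.90 and 1.79, in M14KD and SCR. Zfp868 had the lowest M14KD value of these 5 genes, and its Input reads are given with the Input libraries.

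**Figure D3:**
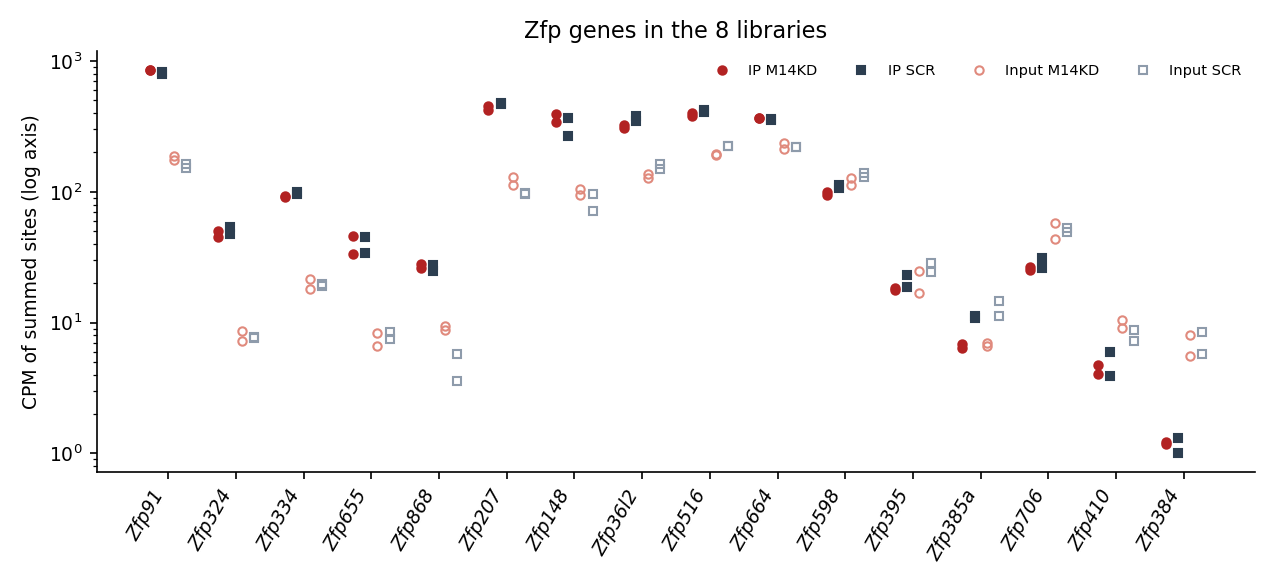
CPM summed over the sites of a gene (log axis) in each of the 8 libraries for 16 Zfp genes, with IP libraries as filled points and Input libraries as open points, M14KD as red circles and SCR as blue or grey squares. From Zfp91 to Zfp868 the IP points lie above the Input points, and for Zfp706, Zfp410 and Zfp384 they lie below.

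Single genes with very few Input reads had larger fitted ratios that rest on 1 to 3 counts. Zfp940, with 1 site, had 58 IP counts and 1 Input count over both SCR libraries, a CPM ratio of 19.6 with a 95% counting interval of 3.38 to 786. In M14KD it had 55 IP counts and 2 Input counts, a ratio of 9.34 (2.47 to 79.1). Zfp763 had 46 IP counts and 1 Input count in SCR (ratio 15.5, interval 2.65 to 626), and Zfp74 had 77 and 3 (8.66, 2.86 to 42.9). Zfp873 had 43 and 2 (7.26, 1.89 to 61.8). These intervals cover counting error only and are wide for each ratio. Of the other genes among the 10 largest called in SCR without overlap of libraries, Zfp846, Zfp37, Zfp526 and Zfp101 had log2 ratios of 2.38, 2.25, 1.95 and 1.89. In M14KD the same choice gave Zfp446 (2.06, SE 0.50), Zfp865 (1.88, SE 0.21), Zfp839 (1.75, SE 0.26), Zfp503 (1.74, SE 0.30) and Zfp454 (1.73, SE 0.64), of which Zfp454 and Zfp446 had 4 and 5 Input counts over both libraries.

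Fewer Zfp genes lay below Input, and 6 of the 13 in SCR held a single site. The lowest was Zfp384 on chromosome 6 (125009017 to 125037870), which encodes a nuclear matrix transcription factor. Its 1 site had 13 and 12 counts in the M14KD IP libraries and 11 and 14 in the SCR IP libraries, against 29 and 19 in M14KD Input and 21 and 31 in SCR Input, although the IP libraries held about 3 times as many counts in all. Its log2 ratio was -3.16 (SE 0.35) in M14KD and -3.29 (SE 0.35) in SCR. Zfp706 followed at -1.66 and -1.51 in M14KD and SCR. Zfp410, an activator of the remodeller gene Chd4, was at -1.84 and -1.39, and Zfp395 at -0.90 and -1.04. Zfp598, a ubiquitin ligase that senses collided ribosomes, was at -1.0 in each (SE 0.10). With column totals as the scale, the 4 genes still called lower in both genotypes were Zfp384, Zfp706, Zfp410 and Zfp598, at -2.58, -0.80, -0.67 and -0.29 in SCR. The other lower calls of the TMM scale were lost, and Zfp422, called lower in SCR at -0.33, was called higher there at 0.38.

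The lists by role are short, and their counts describe the listed genes only. Of all tested Zfp genes 55.6% were higher and 6.88% lower in M14KD, and 53.1% and 8.12% in SCR. Sorted by role, the 1 gene of the CCCH proteins that had a site, of 3 listed, was Zfp36l2, which binds AU-rich mRNA and speeds its decay. It had 325 and 310 CPM in M14KD IP and 350 and 382 CPM in SCR IP, against 138 and 127 CPM in M14KD Input and 150 and 164 CPM in SCR Input. All IP libraries lay above all Input libraries, and the log2 ratio was 0.57 in M14KD and 0.53 in SCR (SE 0.09 each).

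Of the 9 listed RNA, ribosome and nuclear matrix genes 7 had sites, and in SCR 2 were higher in IP and 3 lower, with the same counts in M14KD. Zfp207, a kinetochore protein that loads Bub3, had 455 and 419 CPM in M14KD IP and 476 and 468 CPM in SCR IP, against 129 and 112 CPM in M14KD Input and 97.1 and 97.3 CPM in SCR Input. Its log2 ratio was 1.17 in M14KD and 1.59 in SCR (SE 0.09 each). Zfp638, a nuclear matrix protein that silences unintegrated retroviral DNA, was also higher, at 0.86 and 0.57. The 3 lower genes were Zfp598, Zfp622, a factor of the maturing large ribosomal subunit (-0.88 and -0.67 in M14KD and SCR), and Zfp385a, a p53 cofactor that also binds RNA (-0.73 and -0.93). With column totals the SCR values of Zfp622 and Zfp385a were 0.05 and -0.22, neither past the threshold. Zfp106, an RNA-binding protein, and Zfp830, a splicing-associated protein, had ratios of -0.16 and -0.25 in M14KD and -0.11 and -0.59 in SCR, none past the threshold, and both SCR values were above 0 with column totals.

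Of the 9 listed sequence-specific factors 6 had sites, with 3 higher and 2 lower in each genotype. Zfp148, which binds GC-rich promoters, had a log2 ratio of 1.18 in M14KD and 1.24 in SCR. Zfp281, a regulator of pluripotent cells, had 0.97 and 0.66, and Zfp703, a corepressor, had 0.72 and 0.85. Zfp384 and Zfp410 were the 2 lower genes, and Zfp219 did not pass, at 0.11 and -0.08.

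Of 13 listed chromatin and corepressor partners 10 had sites, and 8 were higher in IP in M14KD and 6 in SCR, with none lower in either. Beside the shares of all tested Zfp genes, 55.6% and 53.1% higher and 6.88% and 8.12% lower, 10 genes do not set this role apart. Zfp451, a SUMO ligase known in human, had 1.10 in M14KD and 1.04 in SCR, and Zfp687 had 0.87 and 1.07. Zfp462, a partner of heterochromatin proteins, was at 1.08 and 1.16, and Zfp609, a partner of the cohesin loader Nipbl, at 0.90 and 0.88. Zfp516, a brown fat transcription factor, was higher by 0.33 and 0.20 (SE 0.08 each). Zfp644, a partner of the methyltransferase G9a, passed in M14KD (0.70) and not in SCR (0.30), Zfp518b had 0.53 and 0.33, Zfp532 had 0.46 and 0.28, and Zfp217 had 0.35 and 0.70, the last with its pass in SCR. A pass in 1 genotype alone does not show a difference between them, and the tested change was not past the threshold for any gene. Zfp592 had -0.07 and -0.14, neither past the threshold.

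Of the 7 listed KRAB proteins of imprinting and retroelements 2 had sites. Zfp445, which keeps genomic imprints, had log2 ratios of 0.19 in M14KD and 0.37 in SCR, neither past the threshold. Zfp568, a repressor of a placental Igf2 promoter, passed in M14KD (1.34) and not in SCR (0.51). Zfp800, which in human gut organoids represses endocrine differentiation, was higher in both, at 0.90 and 1.09. Of 20 listed genes of the KRAB corepressor and heterochromatin machinery, which are not Zfp genes, 9 had sites. In SCR Setdb1, Dnmt3a and Morc3 were called higher in IP, and Cbx1, Chd4 and Mphosph8 were among those called lower. Setdb1, the histone methyltransferase of KRAB silencing, had a ratio of 0.91 in M14KD and 0.86 in SCR, and Chd4 had -1.32 and -1.40.

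Zfp genes lie in clusters in the mouse genome, and 15 groups of at least 3 of these genes, each within 500000 bases of the next, held 66 of the 164. The largest, 10 genes on chromosome 7 (127233061 to 127885996), included Zfp771 and had a median log2 ratio of 0.35 in SCR, with single genes between -0.61 and 1.81. A group of 7 genes on chromosome 17 (32765496 to 33394637) had a median of 1.61 and a range of 0.83 to 3.15, the upper end from Zfp763 with its 1 Input count. All 15 groups had a median above 0, as did 83.8% of the tested Zfp genes singly in SCR. In the chromosome 13 group, with a median of 1.09, Zfp759 and Zfp738 had 1 and 2 SCR Input counts. Genes of a cluster can be near copies of each other, and whether reads were split between copies is not stated in the labels or the file.

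Sites of 1 gene could lie on both sides of Input, in Zfp genes as in others. At single sites 353 of 804 tested Zfp sites were higher in IP and 102 lower in M14KD, and 350 were higher and 114 lower in SCR, with 33.8%, 33.1%, 34% and 33.4% over all 33356 sites. With column totals 567 Zfp sites were higher in each genotype, and 41 were lower in M14KD and 31 in SCR. The shares of all sites on that scale are not given here, so these counts describe the Zfp sites only. Of 122 Zfp genes with at least 2 tested sites, 35 held sites called in both directions in M14KD and 42 in SCR, 28.7% and 34.4%, against 35.3% and 36.7% of all 4833 such genes. With column totals these numbers were 24 and 16 Zfp genes, 19.7% and 13.1%, against 29.6% and 29.5% of all such genes, and the site values below are on the TMM scale. Zfp777 had 6 sites higher and 6 lower among 17, with log2 ratios from -2.02 to 1.46, and its summed ratio was 0.12. Among its 10 sites between positions 48043963 and 48044596 of chromosome 6, the highest lay at 48044068 and the lowest at 48044596. The higher had 319 and 341 counts in M14KD IP and 328 and 380 in SCR IP, against 18 and 17 in M14KD Input and 31 and 22 in SCR Input. The lower had 54 and 63 counts in M14KD IP and 66 and 78 in SCR IP, against 49 and 33 in M14KD Input and 55 and 28 in SCR Input. The higher site had more reads in each IP library and fewer in each Input library, so both kinds of read set the ratios apart, with the wider gap in IP.

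The sites with the lowest p in other genes show the same spread of levels. Zfp207 at position 80395699 of chromosome 11 had log2 ratios of 1.64 in M14KD and 2.12 in SCR, Zfp275 at 73356011 of chromosome X had 2.37 and 2.48, and Zfp821 at 109724868 of chromosome 8 had 2.59 and 2.07. Zfp746, Zfp740, Zfp142 and Zfp282 had called sites of 2.48, 2.12, 2.01 and 2.18 in M14KD and 2.40, 2.09, 2.20 and 1.60 in SCR. Among lower sites, Zfp213 had -2.03 in M14KD and -1.93 in SCR, Zfp512b had -1.93 and -2.19, Zfp248 had -1.46 and -1.10, and Zfp68 had -2.59 and -1.65. Zfp213, Zfp512b and Zfp248 had summed ratios of 0.17, 0.35 and 0.46 in M14KD and 0.16, 0.14 and 0.48 in SCR. In these genes a low site lay in a gene whose sum was above 0. The summed ratio of Zfp68 was below 0 in SCR, at -0.56, as were those of Zfp598 and Zfp622, which also held lower sites.

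Among genes with many sites some held called sites in both directions and others in 1. Zfp516, with 29 sites, had 8 higher and 5 lower in SCR, and Zfp12, with 20, had 10 higher, 4 lower and a summed ratio of 0.74 in M14KD and 0.75 in SCR. Zfp639, with 16 sites, had 11 higher, 1 lower and summed ratios of 1.11 and 0.93. Zfp664 and Zfp651, with 15 and 16 sites, had summed ratios of 0.02 and -0.07 in M14KD and 0.02 and 0.01 in SCR, and Zfp651 had 4 sites higher and 7 lower in SCR. Zfp106 had 3 sites higher and 6 lower among 10, and Zfp251 had 12 higher and 4 lower among 16. Zfp148, with 15 sites, had 11 higher and none lower, and Zfp91 had 9 higher and none lower among 11. In Zfp91 the 5 sites between 12770020 and 12770102 had ratios of 2.23 to 2.74 in SCR, while the 2 sites furthest from the gene end, at 12770185 and 12770238, had 0.09 and -0.09. The site at 12770102 had 1777 and 1691 counts in M14KD IP and 1724 and 1576 in SCR IP, against 75 and 69 in M14KD Input and 71 and 74 in SCR Input. The next site, at 12770185, had 458 and 377 counts in M14KD IP and 441 and 396 in SCR IP, against 82 and 102 in M14KD Input and 78 and 84 in SCR Input. Zfp598 had all 7 sites lower in SCR, between -0.52 and -1.67. The window over which reads were counted is not stated in the labels or the file, so neighbouring sites may share reads, and 306 of the 813 Zfp sites were dropped when 1 site was kept per 100 bases.

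**Figure D4:**
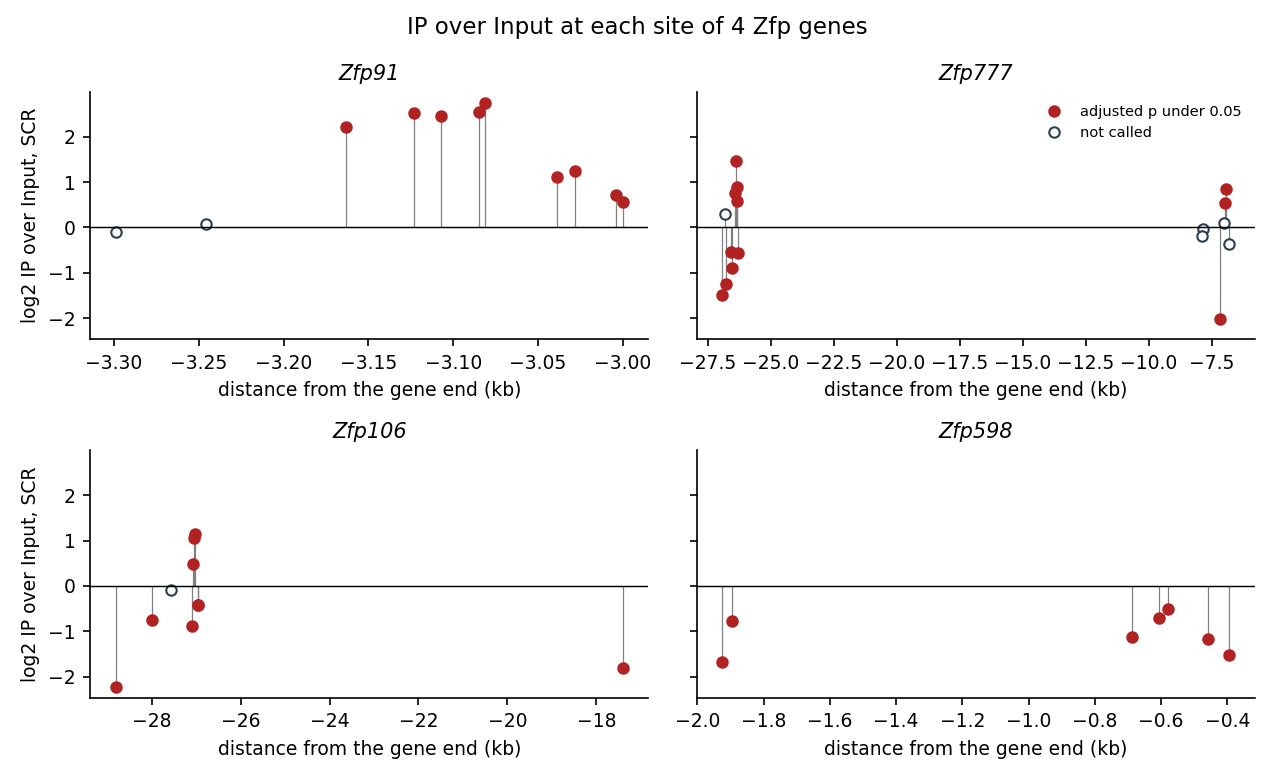
Log2 IP over Input in SCR (vertical axis, TMM scaling) at each site of 4 Zfp genes, by distance from the gene end in kb (horizontal axis), with called sites as filled red points and others as open points. Zfp91 reaches 2.74, Zfp777 and Zfp106 hold sites on both sides of 0, and all 7 sites of Zfp598 lie below 0.

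The second comparison asked whether Mettl14 knockdown changed the IP reads of Zfp genes. No Zfp gene passed the threshold. Of 161 tested genes edgeR called 0, and DESeq2, without the filter on low counts, called 0 of 164. Over all 6381 genes edgeR called 0 as well (0%). At an unadjusted p under 0.05 there were 20 higher and 6 lower Zfp genes, 12.4% and 3.73%, against 7.48% and 6.63% of all genes. The log2 fold change was above 0 in 99 genes (61.5%, against 52.4% of all genes), with a median of 0.07 against 0.01. Both M14KD libraries lay above both SCR libraries in 39 genes and below both in 31, 24.2% and 19.3%, against 19.8% and 26.3% of all genes. At single sites 0 of 810 were called, against 0.255% higher and 0.375% lower over all 33348 sites. At an unadjusted p under 0.05, 76 Zfp sites were higher and 23 lower, 9.38% and 2.84%, against 7.1% and 6.17% of all sites. The lowest adjusted p of a Zfp gene was 0.206.

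The genes with the lowest unadjusted p are given as values. Zfp385a had 6.35 and 6.86 CPM in M14KD IP against 11.2 and 10.8 CPM in SCR IP, which is -0.71 on the log2 scale (SE 0.16, edgeR adjusted p = 0.206). Its Input values ran the same way, with 6.64 and 6.98 CPM in M14KD against 11.3 and 14.6 CPM in SCR or -0.93 on the log2 scale (SE 0.26, edgeR adjusted p = 0.252). The groups did not overlap in either kind of library, at a single site 710 bases from the gene end, and the IP over Input change between genotypes was 0.20 (SE 0.30). Zfp651 had -0.27 (SE 0.08), Zfp362 -0.34 (SE 0.13), Zfp36l2 -0.18 (SE 0.07) and Zfp111 -0.52 (SE 0.21). All 15 sites of Zfp36l2 and all 16 of Zfp651 had IP log2 fold changes below 0, though sites of 1 gene share its RNA and perhaps its reads. Their summed Input log2 fold changes were below 0 as well, at -0.25 (SE 0.11) in Zfp36l2 and -0.21 in Zfp651. The IP over Input change of Zfp36l2 between genotypes was 0.05 (SE 0.13).

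On the other side, Zfp35 had 40.2 and 38.9 CPM in M14KD IP against 29.8 and 30.6 CPM in SCR IP, or 0.41 on the log2 scale (SE 0.10, edgeR adjusted p = 0.22). Its Input libraries overlapped, with 17.4 and 19.5 CPM in M14KD against 19.1 and 14.3 CPM in SCR. Zfp146 had 324 and 294 CPM in M14KD IP against 271 and 222 CPM in SCR IP, a log2 fold change of 0.35 (SE 0.10), and its 17 sites all had values above 0. Zfp654, Zfp961 and Zfp422 had 0.54 (SE 0.16), 0.31 (SE 0.09) and 0.32 (SE 0.11). In each of these 5 genes both M14KD IP libraries lay above both SCR ones, and no p passed the threshold.

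The calls depended on which library was left out. The SCR IP libraries stood further apart than the M14KD IP libraries, and the part of this spread in the calls was not tested. The chi-square per degree of freedom between replicates over sites was 1.95 in IP M14KD and 2.55 in IP SCR, and 1.35 in Input M14KD and 1.42 in Input SCR. This value rises with read depth where libraries differ beyond counting error, so the IP and Input values cannot be ranked against each other. Without replicate 1, which leaves SCR with 1 library that is assumed to vary like the M14KD pair, 13 of 163 Zfp genes rose and none fell (7.98%, against 2.09% higher and 0.826% lower of all genes). They were Zfp68, Zfp101, Zfp131, Zfp146, Zfp148, Zfp281, Zfp292, Zfp322a, Zfp445, Zfp638, Zfp644, Zfp654 and Zfp948, with log2 fold changes from 0.47 to 1.21. Without replicate 4, 6 of them were called, Zfp146, Zfp281, Zfp292, Zfp322a, Zfp445 and Zfp638 (3.7%, against 1.56% higher and 1.08% lower of all genes). Without replicate 2 no Zfp gene was called, against 0.187% higher and 0.234% lower of all genes, and without replicate 3 none was, against 0.0624% and 0.109%. At single sites, leaving out replicate 1 gave 51 higher and 4 lower of 812 Zfp sites, 6.28% and 0.493%, against 2.83% and 1.42% of all sites. Zfp148 shows the pattern, with 392 and 340 CPM in M14KD IP against 367 and 268 CPM in SCR IP, and log2 fold changes of 0.47 without replicate 1 and 0.01 without replicate 2. Zfp638 had 109 and 92.8 CPM in M14KD IP against 88.2 and 63.4 CPM in SCR IP, with SCR replicate 2 the lowest of the 4. In both genes replicate 2 of SCR was low in Input as well, at 70.9 CPM in Zfp148 and 26.7 CPM in Zfp638, against 95.7 and 36.8 CPM in replicate 1.

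In the Input libraries, where a change is in a gene's share of the site counts and not in its RNA per cell, no Zfp gene passed either. Of 127 tested genes edgeR called 0, against 0 of all 5826 genes (0%). DESeq2, without the filter on low counts, called 0 of 164 Zfp genes. At an unadjusted p under 0.05 there were 10 higher and 9 lower, 7.87% and 7.09%, against 4.82% and 5.36% of all genes. The other 37 Zfp genes had too few Input reads to pass the edgeR filter. Of 570 tested sites 0 were called, against 0.0697% higher and 0.0232% lower over all 30147 sites. At an unadjusted p under 0.05, 27 of these sites were higher and 12 lower, 4.74% and 2.11%, against 4.55% and 4.14% of all sites. The median log2 fold change was 0.04 against 0.00 for all genes.

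Zfp846 had 6.92 and 6.98 CPM in M14KD Input against 3.04 and 1.65 CPM in SCR Input, from 25 and 24 counts against 11 and 6. Its log2 fold change was 1.55 (SE 0.39, edgeR adjusted p = 0.189), while in IP it was 0.19 (SE 0.15). Zfp868 had 9.41 and 8.72 CPM in M14KD Input against 5.81 and 3.57 CPM in SCR Input, a log2 fold change of 0.95 (SE 0.32), and 0.08 (SE 0.12) in IP. In both genes the Input groups did not overlap and the IP groups did. Zfp445 had 52.6 and 43.9 CPM in M14KD Input against 39.8 and 26.7 CPM in SCR Input, a log2 fold change of 0.54 (SE 0.19) in Input and 0.37 (SE 0.15) in IP. Without replicate 1 it passed in Input, at 0.85 (SE 0.20, edgeR adjusted p = 0.0366), where 0.335% of all genes were called each way. Zfp961 and Zfp207 had 0.40 and 0.31. Below 0 were Zfp385a, given above, Zfp839 (-0.81, SE 0.34), Zfp652 (-0.67, SE 0.25), Zfp142 (-0.39, SE 0.14) and Zfp275 (-0.35, SE 0.14).

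**Figure D5:**
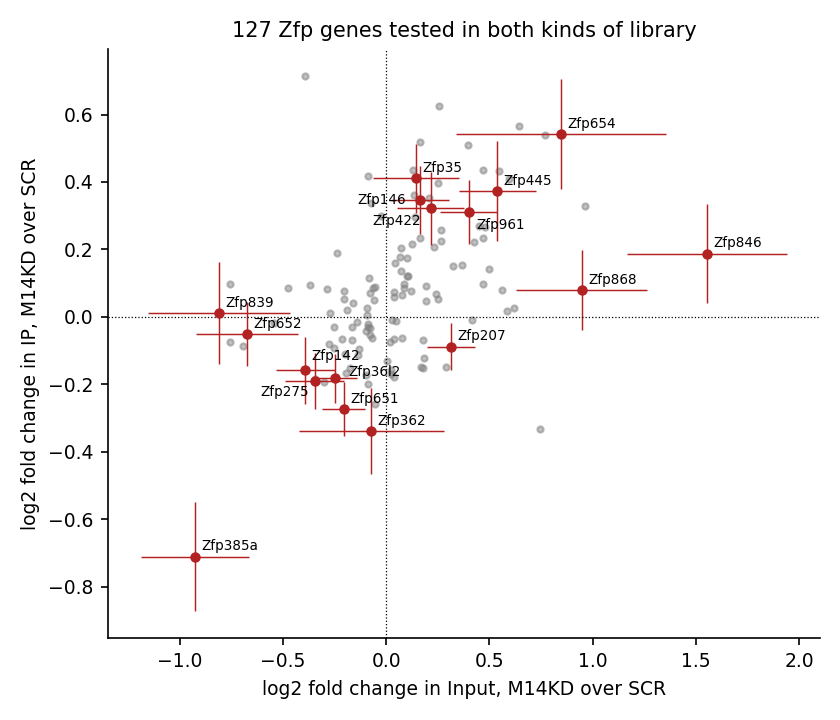
Log2 fold change of M14KD over SCR in IP (vertical axis) and in Input (horizontal axis) for the 127 Zfp genes tested in both, with the named genes in red with standard errors. Zfp385a lies lowest at -0.93 in Input and -0.71 in IP, Zfp846 lies furthest right at 1.55 in Input, and no gene is past the threshold on either axis.

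The third comparison asked whether IP over Input differed between M14KD and SCR. It did so past the threshold in 0 of 160 Zfp genes and 0 of 804 sites by edgeR, against 0 of 6379 genes (0%) and 0 of 33356 sites, and DESeq2 called 0 Zfp genes. At an unadjusted p under 0.05 there were 2 higher and 6 lower genes, 1.25% and 3.75%, against 0.941% and 1.69% of all genes. The median change was 0.01 for Zfp genes and 0.00 for all genes. Genes with the lowest unadjusted p on the lower side were Zfp846 at -1.39 (SE 0.42), Zfp207 at -0.42 (SE 0.13), Zfp868 at -0.89 (SE 0.32) and Zfp365, with Zfp763, whose SCR Input held 1 count. For Zfp207 the IP values were 455 and 419 CPM in M14KD against 476 and 468 CPM in SCR, and the Input values 129 and 112 CPM against 97.1 and 97.3 CPM. Both differences point the same way for the ratio, and neither passed alone. On the higher side Zfp652 had 0.61 (SE 0.26), Zfp839 0.81 (SE 0.38), and Zfp280b, Zfp941 and Zfp865 followed. Zfp652 had 76.4 and 79.3 CPM in M14KD IP against 86.5 and 77.2 CPM in SCR IP, and 20.7 and 11.1 CPM in M14KD Input against 23.8 and 27.2 CPM in SCR Input, so 1 M14KD Input library was much lower than the other. All scalings use site counts alone, so a loss of reads equal at all sites cannot be seen in any of these comparisons.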

How the data were processed

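The single deposited table holds whole-number counts per site for 8 libraries, with 1 library per column, per the file headers. The submitters' processing notes name STAR, cutadapt and UMI-tools and the build mm10; how sites were called or filtered, the counting window and the tools' versions are not stated there. RefSeq gene spans of GRCm38.p6 named 31928 sites in 6531 genes, and 26 further sites in a Zfp span and another protein-coding span were left out. Of the 813 Zfp sites 57 also lie in a noncoding or pseudogene span.

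The deposited counts, summed per gene or taken per site, were fitted over the whole table with edgeR 4.0.16 in R 4.3.3 (filterByExpr, TMM, quasi-likelihood F-test, Benjamini-Hochberg, threshold 0.05). M14KD over SCR used the 4 libraries of a kind, and IP over Input and its change used 1 model of all 8. SE was taken as the size of the log2 fold change divided by the root of F. Counting intervals are exact at 95%.

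On simulated counts, 2-fold gene changes were recovered at 95.5% in IP (6374 genes) and 77.6% in Input (5774). For IP over Input the rates were 80.6% in SCR (6348), 86.6% in M14KD (6355) and 78.8% for its change (6354). In the same order, 1.5-fold changes were recovered at 67.2%, 50%, 65.7%, 67.2% and 37.3%. The changed genes were drawn from all tested genes. Median SCR Input count was 97 over all named genes and 30 in Zfp genes, so the rates need not hold for Zfp genes.

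The genes, lists and alternatives were chosen with earlier results of these data known. Named genes were those called (at most 10, by size, without overlap of libraries), 5 each way by lowest p, those with called sites, most sites, most IP reads, extreme IP over Input, and the role lists. The table had 0 unused columns. Some listed marker and partner genes are not reported here. DESeq2 1.42.0, other scalings, filters, site choices, each replicate left out and a replicate block were tried. IP and Input libraries share replicate numbers; within genotypes their deviations correlated at 0.19 in M14KD and 0.29 in SCR over 6042 genes.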

Additional observations from a re-analysis of the deposited data

How the results depend on the processing

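All 10 counts of called Zfp genes or sites were recomputed under the alternatives, and for 122 gene values 1341 comparisons kept direction and side of the threshold, 29 lost the call, 26 gained one and 27 changed sign. The count of Zfp genes called in IP between M14KD and SCR (0) ran from 0 to 13 when 1 replicate was left out, and that in Input (0) from 0 to 1. For IP sites (0) it was 1 with column totals, 2 with all 8 libraries in 1 model, and 0 to 55 with 1 replicate left out (51 higher and 4 lower without replicate 1). Zfp sites called for IP over Input numbered 276 in M14KD and 280 in SCR with 1 site per 100 bases, against 455 and 464, since fewer sites were tested. For IP over Input, DESeq2 without the filter called 75 Zfp genes higher and 10 lower in M14KD, and 73 and 9 in SCR. Leaving out 1 replicate, the Zfp median minus that of all genes was 0.60 to 0.68 in M14KD and 0.56 to 0.63 in SCR. With the replicate block, 91 genes were higher and 12 lower in M14KD and 91 and 14 in SCR, and the change between genotypes called 0. The shared numbers alone do not show that libraries were paired, with 2 pairs in each genotype.

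In IP between M14KD and SCR, leaving out 1 replicate gave ranges of -0.0751 to 0.043 in Zfp106, -0.23 to 0.26 in Zfp219, -0.12 to 0.27 in Zfp384, -0.43 to 0.19 in Zfp410, -0.23 to 0.15 in Zfp462, -0.0774 to 0.11 in Zfp518b, -0.19 to 0.0206 in Zfp532, -0.33 to 0.10 in Zfp609 and -0.0518 to 0.37 in Zfp800; Zfp106 was 0.0274 with 1 site per 100 bases and Zfp518b was -0.0012 with column totals. For IP over Input in SCR, column totals gave 0.61 in Zfp106, 0.63 in Zfp219, 0.57 in Zfp592, 0.0456 in Zfp622 and 0.13 in Zfp830, by the shift of the whole scale. Zfp592 was 0.0212 with 1 site per 100 bases, Zfp651 -0.0045 with DESeq2 size factors and -0.0198 at a mean count of at least 20, where Zfp664 was -0.0144. Leaving out 1 replicate gave -0.30 to 0.17 in Zfp219, -0.0172 to 0.74 in Zfp518b, -0.0155 to 0.0417 in Zfp651, -0.0107 to 0.0467 in Zfp664 and -0.0391 to 0.27 in Zfp777. Apart from those named, the cause of a change was not tested. Depth limits the Input side: 37 of 164 Zfp genes did not pass the edgeR filter there.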
